A study of Mus musculus with 8 samples.

Results

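The erythroid, globin and heme synthesis genes include those by which RNA of red blood cells shows itself in a tissue. A set of 33 was chosen by symbol, and each gene was read from its brightest probe set among those annotated to that symbol alone. Of the 33, 30 had such a probe set, out of 18194 genes in all, while Hbb-b1, Epb41 and Trim58 had none. RNA of the mandibular arch, the embryonic tissue of the lower jaw, was measured on Affymetrix arrays from C57BL/6J mouse embryos at embryonic day 11.5. The 4 control arrays came from Alk5 fl/fl embryos and the 4 mutant arrays from Wnt1-Cre;Alk5 fl/fl embryos. Both groups carry the floxed allele of Alk5, the type I TGF-beta receptor gene now named Tgfbr1. The Wnt1-Cre driver acts in neural crest cells and their descendants, and only the mutant labels name it. Effects of the driver itself and of losing Alk5 therefore cannot be told apart. Red blood cells are not of neural crest origin and are not targets of this driver.

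As background, the first red blood cells of a mouse embryo arise in the yolk sac and circulate as large nucleated cells that mature in the blood stream. These primitive cells make embryonic hemoglobin from the zeta chain (Hba-x) and the epsilon-y and beta-h1 chains (Hbb-y, Hbb-bh1), beside adult alpha chains. Smaller definitive cells from the fetal liver later bring adult beta globin. Heme is made by a chain of mitochondrial and cytosolic enzymes that begins in red cells with Alas2 and ends with Fech, and transcription factors of the Gata1, Tal1, Lmo2 and Klf1 group drive globin, heme and membrane genes together. The arch contains blood vessels, so its RNA holds that of the blood within them.

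Array medians ran from 6.28 to 6.42 on the log2 scale. The array of mutant replicate 3 was unlike the rest, with an SD over all probe sets of 2.42 against 2.52 to 2.56, and it was the dimmest array for 41.8% of all genes and the brightest for 26.9%. The labels number the samples without saying that each came from another embryo, so the p-values rest on array-to-array spread that could be technical. The floxed gene, Tgfbr1, read 12.71 to 12.90 in controls and 12.97 to 12.99 in mutants, and its probe set is not known to lie in the deleted part, so it checks nothing about the deletion. Markers of arch mesenchyme had mean log2 values of 7.62 to 13.1 over 10 genes. Of 8 liver markers measured, Alb and Afp read 5.10 to 5.69 and 5.16 to 5.69, above the lower quartile of the arrays (4.77 to 4.99) and below their medians. Among the other liver markers Apoa1 and Ttr were brightest, with control means of 6.78 and 6.64.

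The members had slightly lower values in the mutant arches, in differences of which none could be called singly. The log2 difference, mutant minus control, was below 0 in 26 of 30 members, with a median of -0.14, while 52.0% of all genes were below 0 and their median was -0.01. It ran from -0.59 for Epb42, a protein of the red cell membrane skeleton, to 0.18 for Sptb, the beta-spectrin gene. At an adjusted p under 0.05, in limma's moderated model over all genes, the count was 0 of 30, beside 2.14% of all genes (1.31% lower and 0.835% higher), with 0.127 (Nfe2) as the smallest adjusted p. At an unadjusted p under 0.05, 9 members were lower, where 8.95% of all genes were, and 0 were higher, where 4.52% were (13.5% in either direction). The groups did not overlap for 2 members, Uros and Trim10, both lower in the mutants, beside 7.02% of all genes lower and 3.27% higher without overlap. The markers of arch mesenchyme, the main tissue of the sample, had a median of -0.18 on the same arrays, with 8 of 10 below 0, 4 without overlap and 0 past the threshold. Their mean against the controls ran from -0.12 to 0.05 in controls and from -0.27 to -0.06 in mutants, and its part in the members' values was not tested. In a tissue sample, fewer cells holding these RNAs and less of them per cell cannot be told apart. These counts are a description, since genes expressed in the same cells are not independent of each other. Some members, such as Tfrc, Tal1, Sptb and Ank1, are also used in other cells, so their signal need not come from red cells alone.

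**Figure D1:**
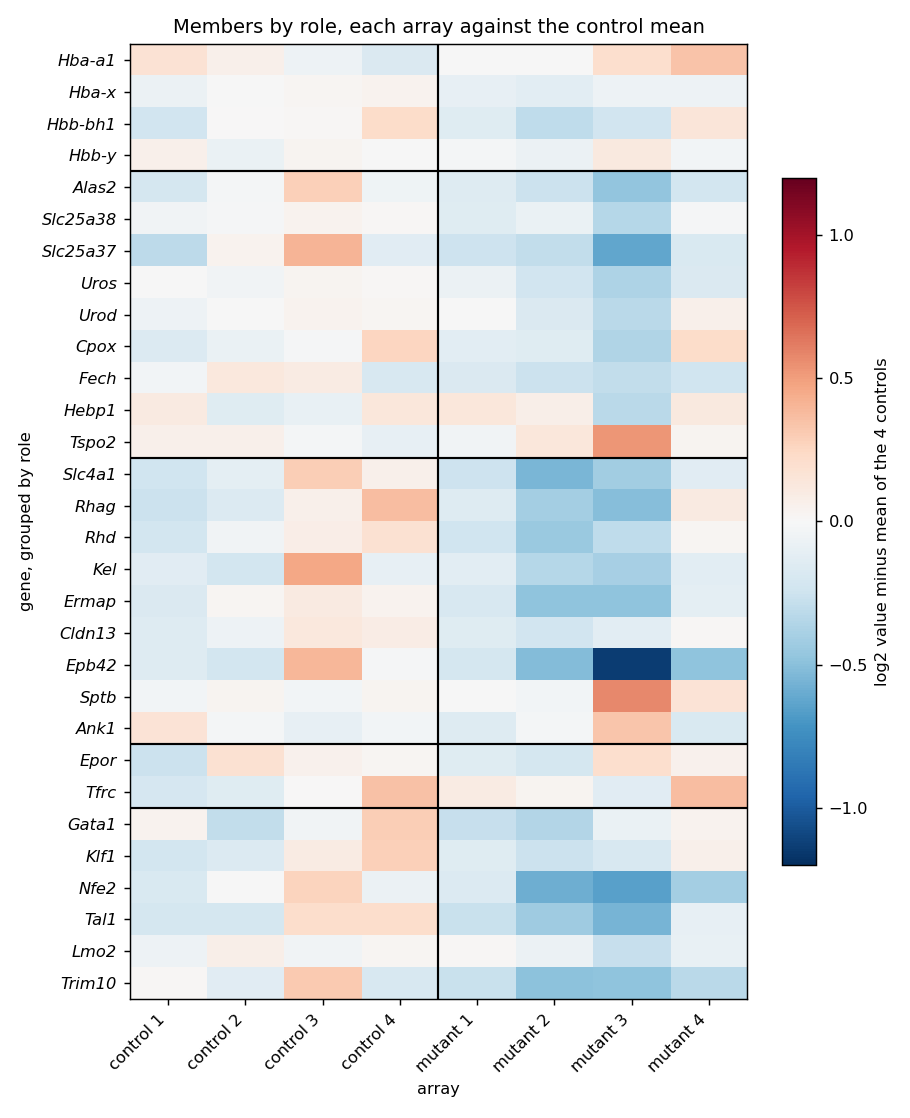
Log2 value of each of the 30 measured members (rows, grouped by role and divided by lines) on each of the 8 arrays (columns), minus the mean of the 4 controls, with red above and blue below it. The mutant columns are mostly blue in the heme, membrane and regulator rows, most deeply for Epb42 in mutant 3, whereas the rows of Hba-x and Hbb-y are pale.

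Medians by role are given as a description. The median was -0.25 for the regulators with Trim10 (6 of 6 below 0), -0.24 for the membrane and skeleton genes (8 of 9) and -0.15 for the heme genes (8 of 9). The order of the first pair turned in 6 of 18 alternatives. The globins were closer to 0 (-0.04, 3 of 4), as were the receptors (0.03, 1 of 2). The globin above 0 was Hba-a1, read from a dim probe set, and over the 3 globins above the median level the median was -0.09. Without mutant replicate 3 the median of the 30 was -0.12 and 25 were below 0. The 9 members lower at an unadjusted p under 0.05 became 6 without control 4 (8.63% of all genes), mutant 2 (10.3%) or mutant 3 (8.86%), and 4 without control 3 (5.91%). The 2 members without overlap became 9 without control 1 (9.18% of all genes) and 7 without mutant 1 (9.16%) or mutant 4 (8.07%), and 3 without control 2 (8.57%) or control 4 (11.2%). With any 1 of the 8 arrays left out, 23 to 25 members were below 0 and 0 passed.

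**Figure D2:**
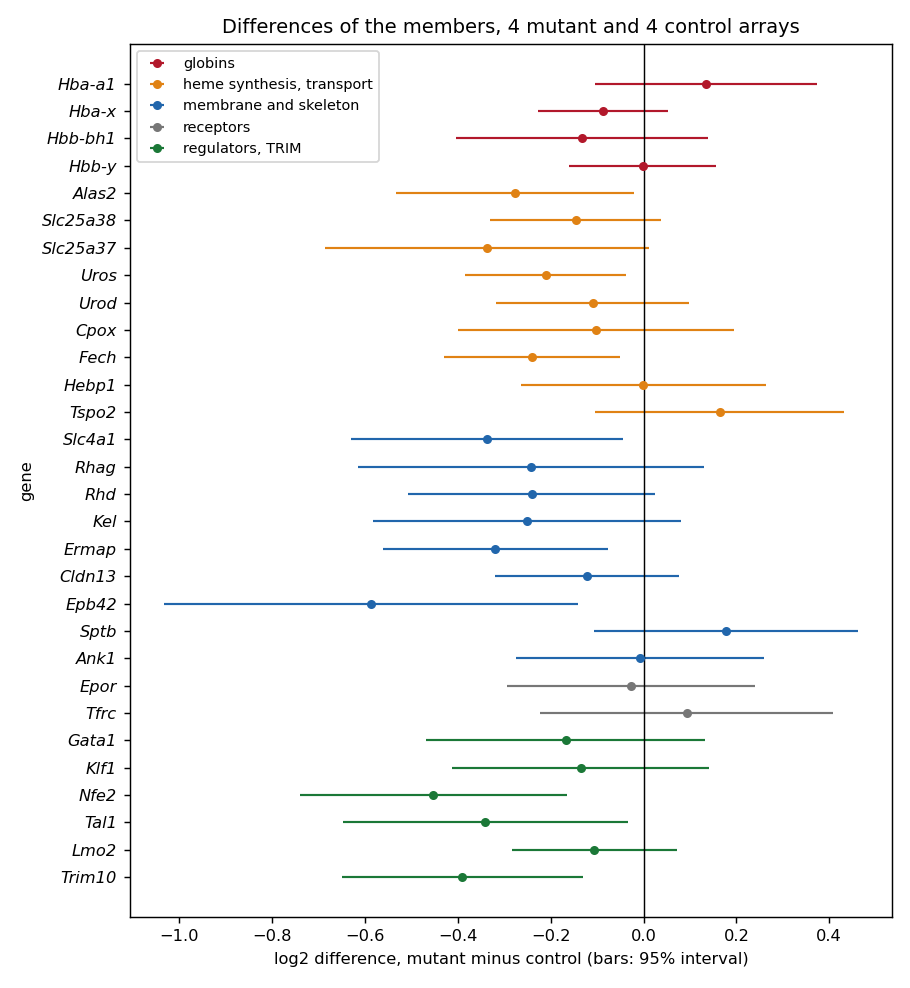
Log2 difference, mutant minus control (horizontal axis), of each measured member, coloured by role, with bars for the 95% interval of limma's fit on 4 arrays per group. Points left of the line at 0 are lower in mutants: 26 of 30 lie there, and Epb42 has both the lowest value (-0.59) and the widest interval.

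Upstream sequences are shown for 4 members whose values frame the results: Alas2 and Trim10 with lower mutant values, Epb42 with the largest difference, and Hba-x as a bright globin with a small difference. They are the 250 bases before the annotated start in RefSeq (GRCm38.p6), written 5′ to 3′ on the gene's strand. Capitals mark matches on either strand to the GATA motif AGATAA, the CACC-box motif CCNCNCCC, which Klf1-type factors recognise, and the NF-E2 motif TGANTCA.
Alas2 (chrX:150547167-150547416, plus strand): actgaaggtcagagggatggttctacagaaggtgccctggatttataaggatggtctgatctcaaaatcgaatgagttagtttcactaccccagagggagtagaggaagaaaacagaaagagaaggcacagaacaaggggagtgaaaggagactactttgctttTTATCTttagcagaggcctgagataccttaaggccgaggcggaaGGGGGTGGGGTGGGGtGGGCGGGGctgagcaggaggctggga
Trim10 (chr17:36869324-36869573, plus strand): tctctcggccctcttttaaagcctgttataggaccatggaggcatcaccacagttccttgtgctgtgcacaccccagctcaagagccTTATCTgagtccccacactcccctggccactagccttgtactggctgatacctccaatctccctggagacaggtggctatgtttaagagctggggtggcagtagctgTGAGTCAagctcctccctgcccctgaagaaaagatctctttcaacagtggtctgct
Epb42 (chr2:121036878-121037127, minus strand): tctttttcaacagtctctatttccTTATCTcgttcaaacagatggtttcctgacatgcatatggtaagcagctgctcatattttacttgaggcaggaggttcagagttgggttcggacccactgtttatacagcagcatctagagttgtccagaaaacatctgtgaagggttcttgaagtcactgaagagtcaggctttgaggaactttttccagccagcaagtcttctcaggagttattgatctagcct
Hba-x (chr11:32276350-32276599, plus strand): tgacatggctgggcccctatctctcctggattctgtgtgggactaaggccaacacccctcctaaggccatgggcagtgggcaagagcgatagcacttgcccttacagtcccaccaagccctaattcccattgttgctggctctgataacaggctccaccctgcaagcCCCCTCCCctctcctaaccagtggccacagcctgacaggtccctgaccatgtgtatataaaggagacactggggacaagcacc
The Alas2 window holds 1 GATA match and 4 CACC-box matches, 3 pairs of which overlap each other. Trim10 holds 1 GATA match and 1 NF-E2 match, Epb42 1 GATA match and Hba-x 1 CACC-box match, and no matches of different motifs overlap in the 4 windows. A window was found for 22 of the 30 measured members. The GATA motif was in 7 of these (Epb42, Tal1, Rhd, Kel, Epor, Trim10 and Alas2), or 31.8%, and in 10.25% of the windows of all 27025 genes. The CACC box was in 10 (45.5%, all genes 45.6%) and the NF-E2 motif in 2 (Kel and Trim10; 9.09%, all genes 6.87%). A match is a run of letters and not a shown binding site.

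The embryonic globin probe sets were bright on every array and varied little between the groups. Hba-x, the embryonic alpha-like zeta chain, read 13.83, 13.89, 13.92 and 13.94 in controls 1 to 4 and 13.80, 13.77, 13.84 and 13.83 in mutants 1 to 4. Mutants 3 and 4 lay at the level of control 1, so the groups overlapped, and the difference was -0.09 ± 0.0627 (log2, SE; 95% interval -0.23 to 0.05; limma adjusted p = 0.626). Hbb-y, the epsilon-y chain, read 14.95, 14.81, 14.92 and 14.88 in controls and 14.87, 14.82, 15.0 and 14.86 in mutants, a difference of -0.00 with a 95% interval of -0.16 to 0.16. Its value in mutant 3 was the highest of any probe set on any array, so Hbb-y was read at the upper end of the scale. Whether the scale limits the differences seen there was not tested.

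Hbb-bh1, the beta-h1 chain, had the widest range of the embryonic globins. It read 13.87, 14.11, 14.12 and 14.32 in controls and 13.96, 13.80, 13.87 and 14.25 in mutants, and it was brightest in replicate 4 of each group. The groups overlapped over most of their range, with a difference of -0.13 ± 0.121 (SE; 95% interval -0.41 to 0.14; limma adjusted p = 0.702). Relative to Hbb-y within each array, Hbb-bh1 was shifted by -0.13 ± 0.156 in mutants (SE, n = 4 each; two-sided exact permutation p = 0.429, adjusted over 2 pairs 0.429). Hba-x relative to Hba-a1 was shifted by -0.22 ± 0.121 (exact permutation p = 0.114, adjusted 0.229), in a design whose smallest possible p is 0.0286. Without control replicate 1 that shift was -0.30, with the smallest exact permutation p that 35 relabelings allow (0.0286). In 14 of 15 alternatives the exact permutation p did not fall under 0.05, and it ran up to 0.4.

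The adult globins could be read only in part. The single probe set annotated to Hba-a1 alone read 4.41 to 4.76 in controls and 4.58 to 4.93 in mutants, below the array's lower quartile on 7 of 8 arrays. Its difference of 0.13 ± 0.107 (SE; adjusted p = 0.66) rests on that dim signal, as does the pair above. By contrast, 3 probe sets annotated jointly to the adult alpha genes Hba-a1 and Hba-a2, which cannot be assigned to either, were bright. The brightest read 14.76 to 14.96 in controls and 14.77 to 14.84 in mutants, a difference of -0.07 ± 0.0724 (SE; limma adjusted p over 45101 probe sets 0.819). A probe set shared by the adult beta genes Hbb-b1, Hbb-b2, Hbb-bs and Hbb-bt read 13.76, 13.92, 14.01 and 13.16 in controls and 13.53, 13.69, 13.68 and 13.24 in mutants. Its difference of -0.18 ± 0.182 (SE; adjusted p = 0.814) lay within the spread of the controls. These jointly annotated probe sets were added after their values were seen.

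Replicate 4 of each group had a globin pattern of its own. All 4 jointly annotated adult globin probe sets were dimmest in control 4 among controls and in mutant 4 among mutants, and all 3 probe sets of Hbb-bh1 were brightest there. Of the 30 members, 7 were brightest in replicate 4 of both groups (Hbb-bh1, Cpox, Rhag, Rhd, Tfrc, Gata1 and Klf1), as were 9.01% of all genes. In the same arrays the mean of 10 markers of striated muscle, against the control mean, was the lowest of its group, at -0.80 in control 4 and -0.53 in mutant 4, where the other arrays ran from -0.21 to 1.18. The part that this plays in the globin values was not tested. Without both arrays numbered 4 the median of the 30 members was -0.16, 23 were below 0 and 0 passed.

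**Figure D3:**
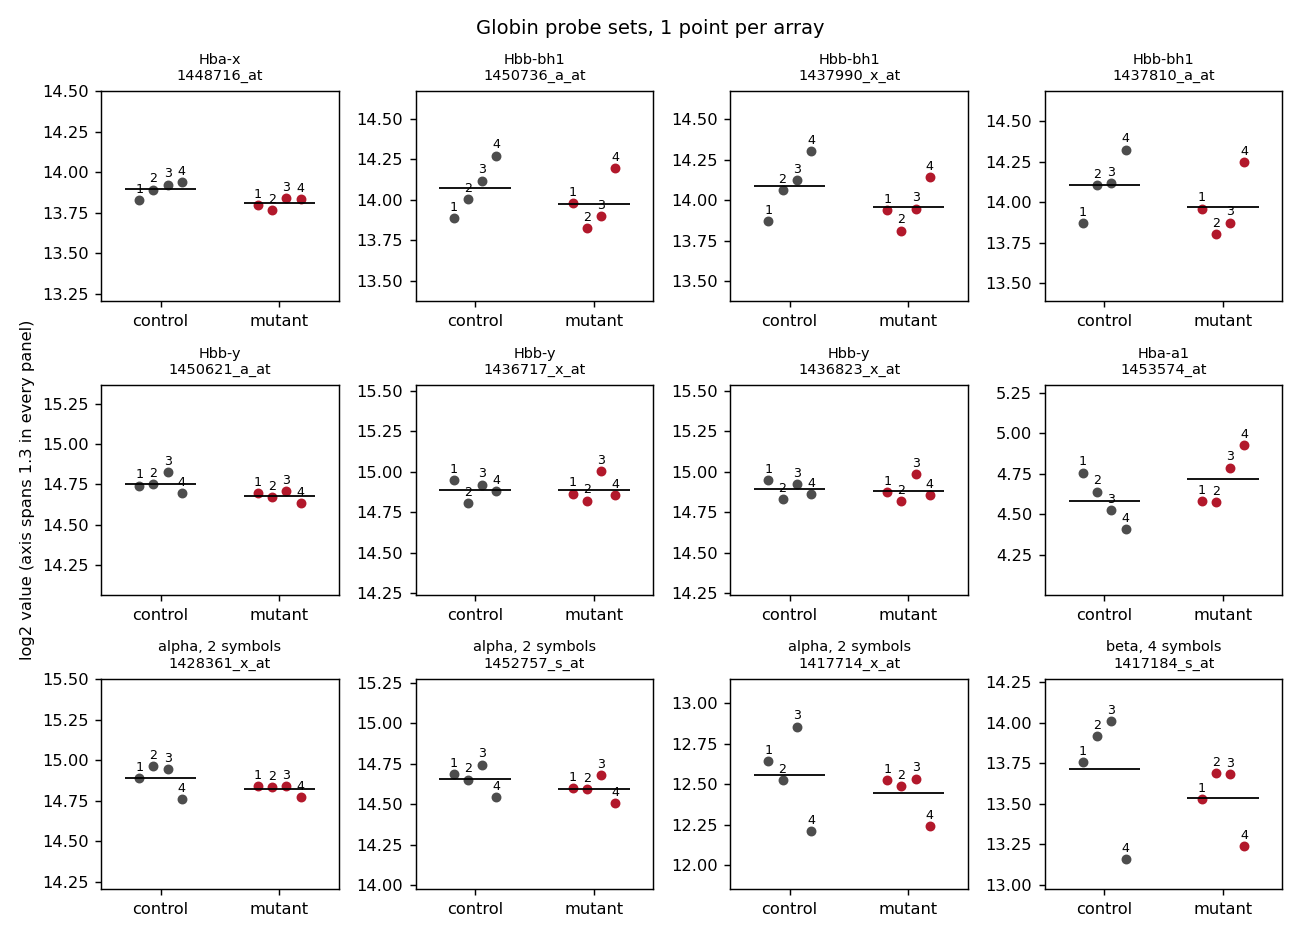
Log2 values of 12 globin probe sets, 1 panel each, with a point per array labelled by replicate number, grey for controls and red for mutants, lines for group means, and a vertical span of 1.3 in every panel. Replicate 4 is the highest point of both groups in the 3 Hbb-bh1 panels and the lowest of both in the 4 panels of jointly annotated adult globins.

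Of the 9 heme genes 8 had mutant means below the control means, as did 52.0% of all genes. For 3 of the 8 (Alas2, Uros and Fech) limma's unadjusted p was under 0.05, where 8.95% of all genes were lower. Alas2, the erythroid enzyme of the first and limiting step, read 8.49, 8.68, 8.99 and 8.65 in controls and 8.54, 8.44, 8.23 and 8.48 in mutants. Control 1 lay among the mutants, and the difference was -0.28 ± 0.115 (SE; 95% interval -0.53 to -0.02; adjusted p = 0.328). Slc25a37, or mitoferrin 1, which brings iron into mitochondria, read 8.86, 9.21, 9.58 and 9.04 in controls and 8.92, 8.88, 8.55 and 8.99 in mutants. It was highest in control 3 and lowest in mutant 3, with a difference of -0.34 ± 0.156 (SE; adjusted p = 0.392). Without control 3 the Slc25a37 difference was -0.20 and that of Alas2 -0.18. Slc25a38, which imports the glycine used by Alas2, differed by -0.15 (adjusted p = 0.506).

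Of the enzymes between first and last step, Uros, uroporphyrinogen III synthase, kept its groups apart. It read 9.29, 9.26, 9.33 and 9.31 in controls and 9.23, 9.07, 8.93 and 9.12 in mutants, so every mutant lay below every control, and mutant 1 was closest to control 2. Its difference was -0.21 ± 0.0773 (SE; 95% interval -0.38 to -0.04; adjusted p = 0.259). Urod (-0.11), the next enzyme, and Cpox (-0.10), the one after it, had overlapping groups. A dimmer probe set of Uros differed by 0.10 ± 0.0822 (SE), the 1 bright further probe set of any member with the opposite sign, where 11 others had the same sign as the one used.

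Fech, ferrochelatase, which inserts iron into the ring, read 10.27, 10.43, 10.40 and 10.11 in controls and 10.13, 10.05, 10.01 and 10.07 in mutants. Only control 4 lay within the mutant range, and the difference was -0.24 ± 0.0845 (SE; adjusted p = 0.237). Its other bright probe sets differed by -0.26 and -0.20. The heme-binding protein gene Hebp1 was level between the groups (-0.00, 95% interval -0.26 to 0.26), and the erythroid transporter-like gene Tspo2 read higher in mutant 3 (6.75) than on the other arrays (6.13 to 6.36).

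Membrane genes held the largest difference of the set. Epb42, or protein 4.2, which ties the anion exchanger to the skeleton, read 6.23, 6.17, 6.78 and 6.37 in controls and 6.18, 5.87, 5.25 and 5.90 in mutants. Mutant 1 lay just above control 2, and mutant 3 was lowest. Controls exceeded mutants 1.5-fold, a difference of -0.59 ± 0.199 (SE; 95% interval -1.03 to -0.14; adjusted p = 0.212). The signal was dim, with a mean of 6.09 at percentile 30.5 of all genes, and without mutant 3 the difference was -0.40. Over the mean of its 2 probe sets the difference was -0.23, since the dimmer one differed by 0.13. Slc4a1, the anion exchanger band 3, read 10.36, 10.48, 10.89 and 10.65 in controls and 10.34, 10.05, 10.18 and 10.46 in mutants, a difference of -0.34 ± 0.13 (SE; adjusted p = 0.288). Control 1 and mutant 4 were the arrays that overlapped, and a further bright probe set differed by -0.35 ± 0.102 (SE).

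Ermap, Rhag, Rhd and Kel, members that encode blood group proteins or their partners, had mutant means below the control means, as did 52.0% of all genes. Of blood group genes outside the set, chosen after their values were seen, Ackr1 and Xk were at 0.05 and 0.08, Gypc at -0.02, Icam4 at -0.17 and Aqp1 at -0.22, and none passed. Ermap, which carries the Scianna antigens, read 7.93, 8.12, 8.21 and 8.15 in controls and 7.91, 7.61, 7.61 and 7.99 in mutants. The overlap was between control 1 and mutant 4, and the difference was -0.32 ± 0.108 (SE; 95% interval -0.56 to -0.08; adjusted p = 0.213). Rhd and Rhag, of the Rhesus complex, differed by -0.24 each and the Kell protease gene Kel by -0.25, with adjusted p-values of 0.426, 0.601 and 0.527. Without control 3 Kel was at -0.10, and without control 4 Rhag was at -0.12. Cldn13, a claudin gene of mouse red cells, differed by -0.12 (adjusted p = 0.63).

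The skeleton genes Sptb and Ank1, which encode beta-spectrin and ankyrin 1 and are also used in muscle and nerve, lay above 0 and near 0. Sptb read 7.25 to 7.32 in controls and 7.28, 7.25, 7.86 and 7.45 in mutants, a difference of 0.18 ± 0.127 (SE; adjusted p = 0.62) in which mutant 3 was highest. Without that array it was 0.04. Ank1 was at -0.01 (95% interval -0.27 to 0.26) and turned above 0 over the mean of its probe sets (0.05).

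Neither surface receptor passed the test. The erythropoietin receptor gene Epor, needed for the survival of red cell precursors, read 8.0 to 8.44 in controls and 8.04 to 8.45 in mutants (-0.03 ± 0.119, SE; adjusted p = 0.944). Tfrc, the transferrin receptor by which dividing cells and red cell precursors take up iron, read 11.03, 11.09, 11.24 and 11.58 in controls and 11.33, 11.27, 11.10 and 11.60 in mutants. The replicate 4 arrays were its highest in both groups, and the difference was 0.09 ± 0.141 (SE; 95% interval -0.22 to 0.41; adjusted p = 0.825).

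All 6 measured genes of the regulator role, Trim10 included, had mutant means below the control means. Nfe2, the p45 subunit of NF-E2, which acts in red cells and platelets, read 6.89, 7.07, 7.34 and 7.0 in controls and 6.91, 6.49, 6.42 and 6.66 in mutants. Mutant 1 alone reached the controls, and the difference of -0.45 ± 0.128 (SE; 95% interval -0.74 to -0.17) had the smallest adjusted p of the set (0.127). Trim10, a TRIM ubiquitin ligase gene of maturing red cells, read 7.76, 7.6, 8.06 and 7.55 in controls and 7.48, 7.25, 7.26 and 7.42 in mutants. Every mutant was below every control, the nearest being mutant 1 and control 4, at a difference of -0.39 ± 0.116 (SE; 95% interval -0.65 to -0.13; adjusted p = 0.148).

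The master regulators had smaller differences. Tal1, which founds the blood lineage and is also active in endothelium, read 8.17, 8.17, 8.59 and 8.59 in controls and 8.11, 7.95, 7.82 and 8.28 in mutants (-0.34 ± 0.137, SE; adjusted p = 0.309). Gata1 read 7.01, 6.67, 6.93 and 7.27 in controls and 6.69, 6.62, 6.89 and 7.01 in mutants, with groups that overlapped widely (-0.17 ± 0.134, SE; adjusted p = 0.663). Klf1, the activator of adult beta globin, differed by -0.14 and Lmo2, the bridge between Tal1 and Gata1, by -0.11, with adjusted p-values of 0.702 and 0.644.

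Single arrays were bright or dim for many members at once. Control 3 was the brightest array for 12 of 30 members (9.87% of all genes) and control 4 for 7 (9.49%). Mutant 2 was the dimmest for 8 (7.62% of all genes). Mutant 3 was the dimmest for 15, a share near that of all genes (41.8%). The mean over the members of each value minus its control mean ran from -0.10 in control 1 to 0.10 in control 3, and from -0.24 in mutants 2 and 3 to -0.04 in mutant 4. Mutants 1 (-0.12) and 4 thus lay beside controls 1 and 2 (-0.10 and -0.05), so the groups overlapped. For the regulators, with Trim10 counted among them, every mutant (-0.37 to -0.14) lay below every control (-0.12 to 0.13). The margin between mutant 4 (-0.137) and control 2 (-0.124) was narrow. Trim10, a ubiquitin ligase gene, is the 1 gene of this role whose groups were apart by itself, and its part in the margin was not tested. The groups overlapped in each of the other roles. The direction of such a mean is fixed in part by the choice of members and is not tested.

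Markers of other blood and vessel cells were read on the same arrays. Rose and fell here mean an adjusted p under 0.05 in limma's model, past which 0.835% of all genes were higher and 1.31% lower. Without overlap, 3.27% were higher and 7.02% lower, and 52.0% were below 0. Of 18 macrophage markers 10 rose and 0 fell, 17 were above 0 and 11 were higher without overlap. Their median difference was 0.72, with a summed log2 level of 11.5 to 11.6 in controls and 12.3 to 12.7 in mutants. Of 11 platelet and megakaryocyte markers, a lineage that shares Gata1, Tal1, Nfe2 and a precursor with red cells, 2 fell (Pf4 and Ppbp) and 0 rose. Of the 11, 10 were below 0 and 3 were lower without overlap. The platelet median was -0.25 and the summed log2 level 11.8 to 12.2 in controls and 11.3 to 11.6 in mutants. Of 13 endothelial markers 1 fell (Erg) and the median was -0.09, with summed levels of 12.2 to 12.4 and 12.0 to 12.5. Of the 13, 9 were below 0 and 1 was lower without overlap. The part of platelet, macrophage or vessel content in the erythroid values was not tested.

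**Figure D4:**
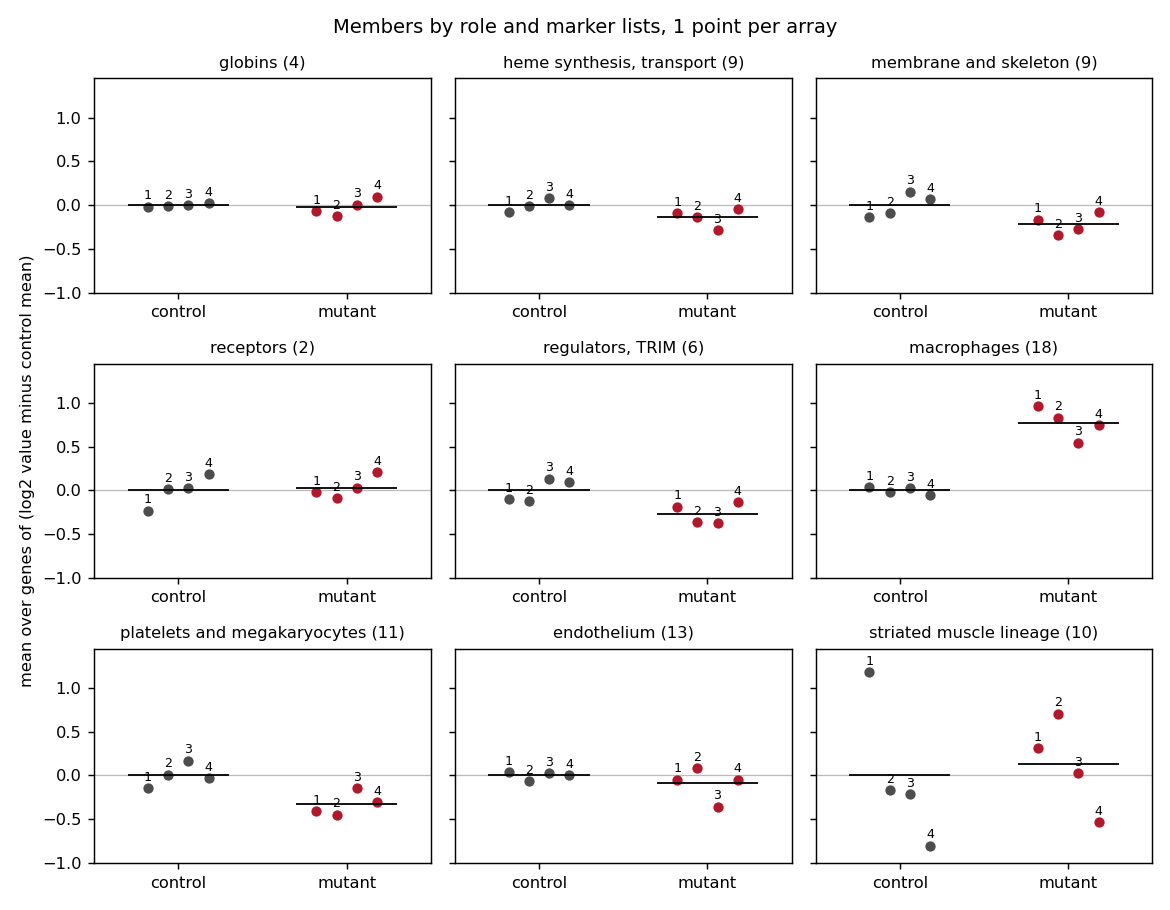
Mean over the genes of a list of the log2 value minus the control mean (vertical axis, the same in all panels), 1 point per array labelled by replicate number, grey for controls and red for mutants, with lines for group means and the number of measured genes in brackets. The 5 erythroid panels lie close to 0 with small shifts, while the macrophage points of the mutants sit between 0.55 and 0.96.

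Further genes of red cells and of heme were read from lists that are not members. Among 32 other erythroid genes measured 1 fell and 0 rose at an adjusted p under 0.05 in limma, beside 1.31% and 0.835% of all genes. Their median was -0.05, with 21 below 0 and 31 not past the threshold. Without overlap, 3 of the 32 were lower and 1 (Pklr, 0.23) higher, beside 7.02% and 3.27% of all genes. The fall was Bcl11a, a zinc finger factor that silences embryonic and fetal globins in definitive red cells and is also expressed in the nervous system and mesenchyme. It read 11.28, 11.62, 11.49 and 11.62 in controls and 11.00, 11.05, 10.96 and 10.95 in mutants. The groups did not overlap, and the difference was -0.51 ± 0.0883 (SE; adjusted p = 0.0218). The call was lost without control 2 (0.0894), control 3 (0.0844), mutant 1 (0.0563) or mutant 4 (0.0831), as limma's adjusted p, and without both arrays numbered 4 (0.132). It held in 12 of 18 alternatives. The Bcl11a probe set with the largest SD differed by -1.01.

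Sox6, a partner of Bcl11a in globin silencing that is also a cartilage factor, did not pass but was 1 of the 3 lower without overlap. It read 7.92 to 8.80 in controls and 7.31 to 7.88 in mutants (-0.77 ± 0.194, SE; adjusted p = 0.0878), and it was chosen after its values were seen. Hemgn, the erythroid nuclear protein hemogen, was brightest in both arrays numbered 4, at 9.89 and 9.62 against 8.18 to 8.98 on the others, and it too was chosen after its values were seen. The groups of Hemgn overlapped (-0.32 ± 0.358, SE; adjusted p = 0.758).

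Of 25 other heme and iron genes 0 passed, beside 2.14% of all genes, and their median was -0.02 with 16 below 0. Without overlap, 5 were lower and 1 higher, beside 7.02% and 3.27% of all genes. At an unadjusted p under 0.05 in limma, 2 were lower and 2 higher, beside 8.95% and 4.52% of all genes. The smallest p belonged to Slc40a1, ferroportin, by which macrophages and other cells release iron. It read 7.73, 7.41, 7.72 and 7.74 in controls and 8.39, 8.38, 7.86 and 8.44 in mutants, apart in every array and lowest among mutants in replicate 3 (0.62 ± 0.139, SE; adjusted p = 0.0582). Without mutant replicate 3 it passed (limma adjusted p = 0.00743). It passed in 5 of 18 alternatives, and its limma adjusted p reached 0.219 in the others. In these arrays the macrophage markers had a median difference of 0.72, and their part in the Slc40a1 value was not tested. Blvra, biliverdin reductase A, which acts after heme is broken down, read 9.87 to 10.06 in controls and 9.48 to 9.73 in mutants (-0.34 ± 0.0808, SE; adjusted p = 0.0723, and 0.0467 without mutant replicate 3). Blvra passed in 4 of 18 alternatives, and its limma adjusted p reached 0.259 in the others.

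Likeness to the red cell pattern was read as Pearson's r over the 8 arrays with the mean of 7 members used in red cells (Alas2, Gata1, Klf1, Slc4a1, Rhag, Epb42 and Ermap). Of the 23 members outside that mean, Tal1 (0.993) and Rhd (0.91) were above 0.9, and 5 members were below 0 (Hba-a1, Hbb-y, Tspo2, Sptb and Ank1). Hba-x and Hbb-bh1 were at 0.802 and 0.792. Outside the members 30 genes were above 0.9. The 10 most alike were Clec1b (0.97), a receptor gene of platelets, then Mkrn2, Foxf1, Telo2, Iah1, Rara, St7, Depdc1a, Dtl and Tipin (0.939 to 0.958). These values share arrays, groups and scaling, and r over 8 arrays is given as a description only.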

How the data were processed

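Total RNA of the mandibular arch was measured on 8 arrays, 4 per genotype, and this number sets the precision of all values. The authors deposited log2 values for 45101 probe sets, made with RMA per the submitters' processing notes. The sources used here give neither its version nor a genome build. The method subtracts background and equalises array distributions, which can compress differences of dim and very bright probe sets.

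The platform annotation gave 1 symbol for 34958 probe sets, several for 932 and none for 9211. The brightest probe set per symbol gave 18194 genes. Mutants and controls were compared with limma 3.58.1 (R 4.3.3; lmFit, eBayes, no covariates), with Benjamini-Hochberg adjustment over all genes at 0.05. The log2 differences within globin pairs, 1 value per array, were tested by exact permutation over 70 relabelings. Of 3 planned globin pairs 2 were run, since Hbb-b1 has no probe set of its own. The steps were tested on simulated data.

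The members, lists and tests were chosen with earlier results of these data known. Named genes were all members, Tgfbr1, list genes past the threshold (or the 2 with the smallest p) and the 10 genes most like the members. Genes chosen after their values were seen are marked, and further members of marker lists served as checks. Alternatives covered the replicate block, the choice of probe set, dim genes, scaling, the variance model and array weights, the threshold and each array left out. Leaving out both arrays numbered 4 and reading every probe set of a member were added after seeing the data.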

Additional observations from a re-analysis of the deposited data

Results flagged for a closer look

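In the mutant group of Hebp1, a heme-binding protein gene, mutant replicate 3 lay far from the other 3 arrays. It read 8.38 where the others read 8.77 to 8.84, a gap of 0.849 of the group's range, which is past Dixon's critical value for 4 samples. This was 1 of 66 groups examined, and chance marks about 1 in 20. Without mutant replicate 3 the Hebp1 difference was 0.11.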

How the results depend on the processing

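Of the 30 member differences, 26 kept their sign under each of the 17 or 18 alternatives that gave them a value, and 0 passed the threshold under any. Leaving out 1 array moved 20 of them by over 1.5 times, and Hba-x, Uros, Fech, Slc4a1, Rhd, Ermap, Epb42, Nfe2, Tal1 and Trim10 by less. The 4 that changed sign were close to 0. With 1 array left out, they ranged from -0.0408 to 0.0198 for Hbb-y, -0.0495 to 0.107 for Hebp1, -0.121 to 0.0498 for Ank1 and -0.114 to 0.0337 for Epor. Ank1 was at 0.05003 over the mean of its probe sets and 0.172 with the probe set of largest SD. Further quantile normalization put Ank1 at 0.0796, Hebp1 at 0.0772 and Epor at 0.0552, and array weights put Hebp1 at 0.123. Without both arrays numbered 4, Hbb-y was at 0.0061, Hebp1 at 0.00675 and Ank1 at 0.0383. Each role's median difference moved by less than the SD, pooled within groups, of the role's mean on single arrays. That SD is not the spread of a median difference between groups. The medians of the globins (-0.09 to 0.02) and receptors (-0.04 to 0.09) crossed 0. The median of all 30 ran from -0.22 to -0.10.

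The count over all genes (390) was 620 after further quantile normalization, 1356 with array weights, 664 at an adjusted p under 0.10 and 104 to 618 with 1 array left out. The other erythroid genes past the threshold numbered 0 with the replicate block (Bcl11a at an adjusted p of 0.0528), and 2 with a trend and robust variance, with array weights or at 0.10 (0 to 2 with 1 array left out). The other heme and iron genes numbered 2 above the median level, 3 after further quantile normalization, 1 with a trend and robust variance, 3 with array weights and 2 at 0.10 (0 to 3 with 1 array left out). The pair Hba-x and Hba-a1 ranged from -0.30 to -0.15 with 1 array left out and was at -0.09 without both arrays numbered 4. The labels do not say whether the replicate numbers pair the samples. Deviations of same-numbered arrays correlated at 0.03, 0.0019, -0.12 and 0.41, and 1 of 4 controls, control 4, matched its own number best. Such correlations cannot settle whether samples were paired. With the replicate block the smallest member adjusted p was 0.225 and 293 of all genes passed. The cause of these changes was not tested. The filter on dim genes left 20 of 30 members.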
